A study of Homo sapiens with 4 samples.

Results

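Expression of 10 S100 and annexin genes was followed in arsenic trioxide (ATO) treated and negative control cells of the human hepatocellular carcinoma (HCC) lines Huh7 and Hep3B. The genes were 6 S100 genes (S100P, S100A4, S100A6, S100A10, S100A11 and S100A14) and 4 annexins (ANXA1, ANXA2, ANXA3 and ANXA5), out of 19775 genes read on the arrays. They were chosen by their ATO over negative control ratios and by the gap between the lines in these same profiles, so both are given below as a description, with no test. All 10 were measured, by 16 probe sets that name 1 of them alone and by 1 probe set annotated to both SNU13 and ANXA2.

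The study held 4 expression profiles from Affymetrix U133 Plus 2.0 arrays. A transcript is read there by a probe set, which combines several short oligonucleotides. In each line, 1 profile came from cells given 3 μM ATO, an arsenic compound used against leukemia, for 7 days, and 1 from cells given DMSO as the negative control. Both are established lines, and the labels name no genetic change in any group. No condition was repeated within Huh7 or within Hep3B, so single ratios have no error, and the number of profiles limits the precision.

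S100 proteins are small proteins with EF-hand calcium-binding loops that form dimers and dock onto other proteins when calcium rises. Annexins are larger proteins that bind acidic phospholipids of membranes in the presence of calcium. Members of both families pair with each other, as S100A10 does with ANXA2 and S100A11 with ANXA1, at sites of membrane traffic, repair and cell surface proteolysis. In liver tumors and other carcinomas several of them are known for their changed levels.

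Intensity is the deposited value of a probe set on a linear scale. Each gene was read from its brightest probe set with 1 gene symbol, and a value was called dim when it lay below 15.99, the median of all probe sets in the 4 profiles. Levels of different genes are not compared, because probe sets differ in their response. The liver markers fixed for the check, 9 of which were measured, were above that median in every profile. Of these, ALB, which encodes serum albumin, was at 155 in negative control Huh7 and 12803 in Hep3B, AFP (α-fetoprotein) at 91.8 and 3567, and TTR (transthyretin) at 48.1 and 1704. APOA1, APOB and TF (transferrin) were also lower in Huh7, at 1046 and 4240, 4109 and 5475, and 6610 and 12576. SERPINA1 (antitrypsin) was higher in Huh7, at 12710 and 10091, as were the keratins KRT8, at 2869 and 2327, and KRT18, at 6196 and 4485. Huh7 is known as a line that makes albumin and α-fetoprotein, and the part of the low ALB and AFP values in the line gaps was not tested. The leukocyte marker PTPRC and the endothelial markers CDH5, VWF and KDR were dim in all 4 profiles. The remaining endothelial marker, PECAM1, was above the median in all 4, between 16.2 and 20.5. The leukocyte list had a summed intensity of 443 without and 267 with ATO in Huh7 and of 222 and 72.5 in Hep3B. This difference was that of 1 gene, LYZ, which encodes lysozyme and was at 411 and 234 in Huh7 and at 176 and 30.3 in Hep3B, while the other 3 were between 6.15 and 21.98 in every profile. The 7 fibroblast markers, 3 of them dim throughout, summed to 153 without and 158 with ATO in Huh7 and to 204 and 142 in Hep3B, where PDGFRA was at 48.5 and 5.35. The part of these markers in the results was not tested. Poly-A control transcripts, added before labeling, were lower with ATO, at log2 ratios of -0.28 (Huh7) and -0.30 (Hep3B), and hybridization controls were at 0.07 and 0.06. In such bulk samples, fewer cells of a type and less RNA per cell cannot be told apart.

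S100P, ANXA1 and ANXA3 were the 3 members with an ATO over negative control ratio above 1.5 in both lines. Over all genes, 0.804% were above 1.5 in both lines and 0.587% were below 0.67 in both, the latter with none of the members. These are the thresholds of the study, and the members were picked with these ratios in view. In Huh7, 5 members were above 1.5 and 1 was below 0.67, where 3.21% and 3.25% of all genes were. In Hep3B, 5 were above 1.5 and none was below 0.67, where 5.04% and 4.02% of all genes were. Of the 10, 7 had ratios above 1 in both lines, as 32.0% of all genes had. The other 3 had ratios on opposite sides of 1, as 8475 of all 19775 genes had. The median log2 ratio of the 10 was 0.47 in Huh7 and 0.61 in Hep3B, beside 0.01 and 0.04 over all genes.

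**Figure D1:**
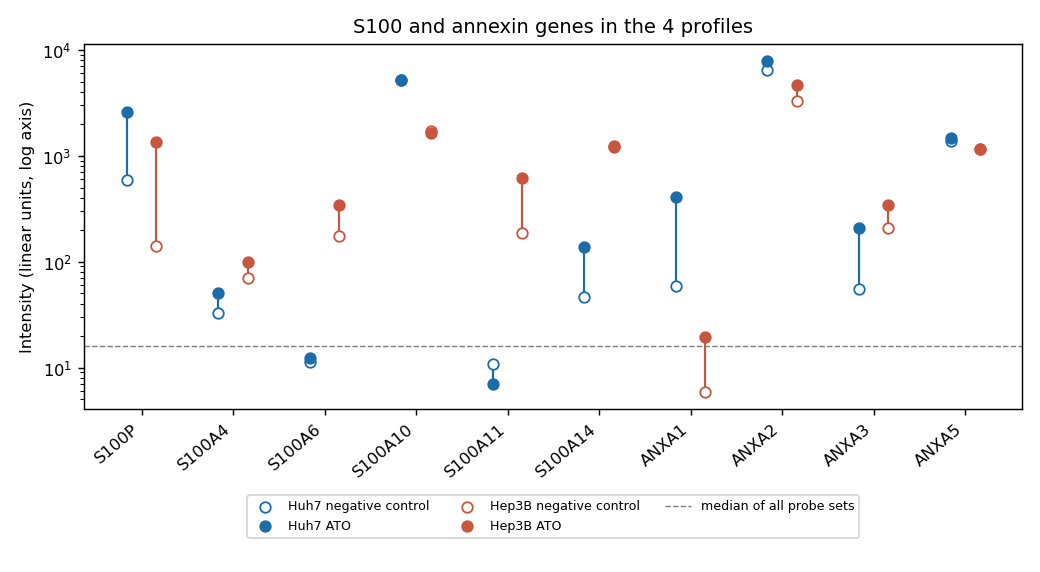
Intensity of each gene (log axis) in Huh7 (blue) and Hep3B (red), open for negative control and filled for ATO, with 1 profile per point and the dashed line at the median of all probe sets, 15.99 (a filled point alone covers its open one). S100P, ANXA1 and ANXA3 have their ATO value more than 1.5 times the negative control in both lines, whereas S100A6 and S100A11 lie under the dashed line in Huh7 with and without ATO.

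S100P encodes a calcium-binding protein that can act on the ezrin cytoskeleton and, outside the cell, on the receptor AGER. Its intensity was 595 in negative control and 2604 in ATO-treated Huh7 cells. In Hep3B it was 141 and 1339. Both ATO profiles were above both negative control profiles, which restates values that S100P was chosen on. ATO over negative control was 4.38 in Huh7 and 9.49 in Hep3B, which gave a mean on the log2 scale of 2.69 ± 0.79 (SD, n = 2 lines). It held rank 17 of 19775 genes by its ratio in Huh7 and rank 6 in Hep3B. Without ATO, Huh7 was 4.22 times Hep3B, and with ATO 1.95 times.

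ANXA1, annexin A1, is known for its anti-inflammatory action through formyl peptide receptors. Its intensity was 58.7 in negative control and 406 in ATO-treated Huh7 cells. In Hep3B it was 5.85, a dim value, and 19.3. In each line the ATO profile was the higher, and both Huh7 profiles were above both Hep3B profiles. The ratio was 6.91 in Huh7, rank 6, and 3.29 in Hep3B, rank 55, with a mean log2 ratio of 2.25 ± 0.76 (SD, n = 2 lines). With the mean over both ANXA1 probe sets the ratios were 2.75 in Huh7 and 1.84 in Hep3B, and with 16 added to every intensity the Hep3B ratio was 1.61, so their size is uncertain. The other ANXA1 probe set was dim in all 4 profiles, between 3.39 and 3.78.

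ANXA3, annexin A3, binds phospholipids and has been tied to stem-like cells of HCC. Its intensity was 54.9 in negative control and 207 in ATO-treated Huh7 cells. In Hep3B it was 209 and 341. The ATO profile of Huh7 thus came to the level of the negative control profile of Hep3B. The ratios were 3.77 and 1.63, at ranks 24 and 661, with a mean log2 ratio of 1.31 ± 0.85 (SD, n = 2 lines). The Hep3B ratio does not pass a threshold of 2.

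The sequence before the start site is shown for these 3 genes because they were the members past the thresholds in both lines. Sequences are RefSeq promoters on GRCh38.p14, 250 bases ending just before the annotated start, read 5′ to 3′ on the gene's strand, with matches to the searched motifs in capitals.
S100P promoter, chr4:6693628-6693877, plus strand: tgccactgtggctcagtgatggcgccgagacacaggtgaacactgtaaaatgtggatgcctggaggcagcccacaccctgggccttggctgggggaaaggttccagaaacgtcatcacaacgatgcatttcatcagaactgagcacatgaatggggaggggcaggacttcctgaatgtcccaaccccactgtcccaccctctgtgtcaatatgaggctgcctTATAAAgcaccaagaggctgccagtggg
ANXA1 promoter, chr9:73151615-73151864, plus strand: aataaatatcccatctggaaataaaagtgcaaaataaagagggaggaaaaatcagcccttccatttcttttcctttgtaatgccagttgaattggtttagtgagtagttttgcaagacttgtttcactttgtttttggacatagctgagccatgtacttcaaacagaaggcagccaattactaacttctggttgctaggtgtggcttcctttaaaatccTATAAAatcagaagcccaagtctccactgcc
ANXA3 promoter, chr4:78551520-78551769, plus strand: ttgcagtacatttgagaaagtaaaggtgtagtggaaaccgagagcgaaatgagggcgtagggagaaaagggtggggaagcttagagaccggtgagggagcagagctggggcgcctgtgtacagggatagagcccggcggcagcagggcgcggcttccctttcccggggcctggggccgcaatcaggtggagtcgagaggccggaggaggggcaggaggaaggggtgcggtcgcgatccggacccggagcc
The capitals in S100P and ANXA1 are TATAAA, the core of a TATA box, which begins 28 and 31 bases before the start. The ANXA3 window held no match to any of the 6 motifs. For each member only the first listed window was searched, so any other start site of the gene was not. TATAAA, searched on both strands, was found in 4 of the 10 members, also in S100A4 and ANXA2, and in 10.7% of the 35116 promoter windows of the same length. The AP-1 motif TGANTCA matched in ANXA2 alone, as TGAGTCA, where 6.57% of windows held it. The core of the antioxidant response element, TGACNNNGC, matched in S100A14 alone, as TGACTCTGC and, on the other strand, GCAGGGTCA, where 10.9% of windows held it. The SP1 motif GGGCGG was in 5 members and 42.6% of windows. The TEAD motif GGAATG and the STAT motif TTCNNNGAA were in none of the 10 windows, where 11.9% and 6.57% of all windows held them. No match of 1 motif overlapped a match of another. A match is a run of letters and says nothing of binding in these cells.

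**Figure D2:**
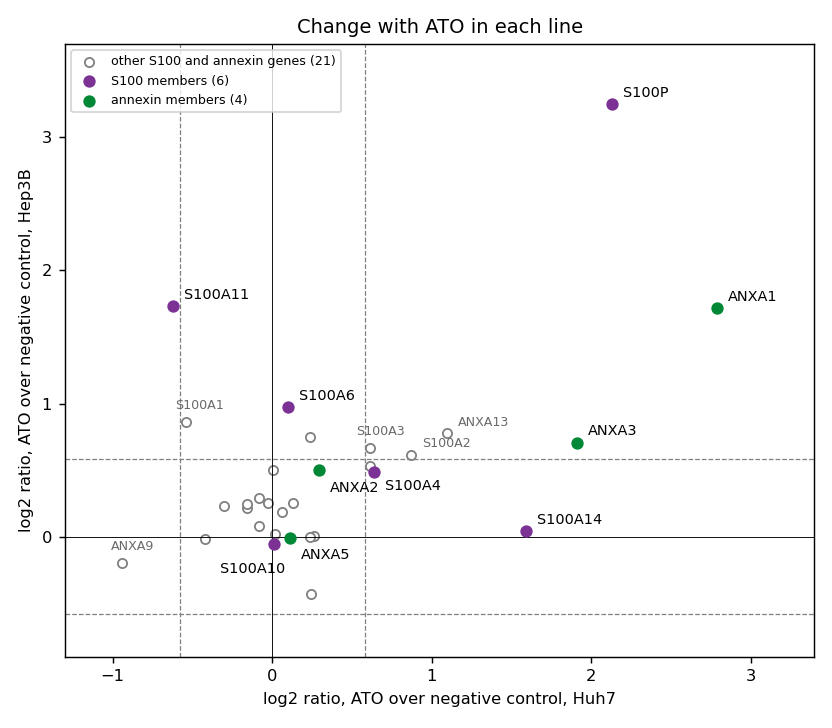
Each point is a gene, with ATO relative to negative control (log2 ratio) for Huh7 on the x axis and for Hep3B on the y axis, shown for the 6 S100 members (purple), the 4 annexin members (green) and the 21 other measured S100 and annexin genes (open), with dashed lines at ratios of 1.5 and 0.67. S100P, ANXA1 and ANXA3 lie in the upper right field, S100A14 to the right at a Hep3B value of 0.04 and S100A11 at the upper left.

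S100A14, S100A6 and S100A11 had a ratio above 1.5 in 1 line and not in the other, as had S100A4, which is given below. S100A14, found mostly in epithelia, was at 45.9 in negative control and 138 in ATO-treated Huh7 cells, and at 1210 and 1247 in Hep3B. The ratio was 3.01 in Huh7, rank 36, and 1.03 in Hep3B. The Huh7 value with ATO remained 9.02 times lower than that of Hep3B with ATO. S100A6, also called calcyclin, was at 11.4 and 12.2 in Huh7, dim in both profiles, and at 173 and 339 in Hep3B. Its ratio was 1.07 in Huh7 and 1.96 in Hep3B, where the log2 ratio went from 0.97 to 0.5845, just under the threshold, with the mean over its probe sets. S100A11, a partner of ANXA1, was at 10.9 and 7.06 in Huh7, again dim in both, and at 186 and 617 in Hep3B. Its ratio was 0.650 in Huh7 and 3.32 in Hep3B, rank 51. With 16 added to every intensity the log2 ratio in Huh7 was -0.22, which is no longer past the threshold. S100A11 was the only member past the thresholds in opposite directions, as 0.324% of all genes were. The differences between the lines were not tested.

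S100A4, S100A10, ANXA2 and ANXA5 were closer to the negative control. S100A4, which binds nonmuscle myosin and is known from metastasis, was at 32.6 and 50.7 in Huh7 and at 70.4 and 98.7 in Hep3B. Its ratios of 1.56 and 1.40 put it above the threshold in Huh7 alone, and with 16 added to every intensity its log2 ratio there was 0.46, which is below it. ANXA2, which carries plasminogen and its activator on the cell surface, was at 6453 and 7907 in Huh7 and at 3261 and 4622 in Hep3B, with ratios of 1.23 and 1.42. S100A10, its partner, was at 5146 and 5193 in Huh7 and at 1699 and 1639 in Hep3B, with ratios of 1.01 and 0.965. ANXA5, the phosphatidylserine-binding protein used to stain apoptotic cells, was at 1370 and 1480 in Huh7 and at 1152 and 1148 in Hep3B, with ratios of 1.08 and 0.996.

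Several probe sets of a gene read the same RNA and are no replicates, but they show how far a value depends on the probe set. The 3 bright ANXA2 probe sets had ratios between 1.23 and 1.25 in Huh7 and between 1.40 and 1.42 in Hep3B. All 3 can bind related transcripts, so ANXA2 is uncertain. The processed pseudogene ANXA2P2, read by a probe set of the same kind, had ratios of 1.15 and 1.22. The 1 ANXA2 probe set without this limit was dim in all 4 profiles, between 4.35 and 7.12. Both S100A10 probe sets gave nearly the same values, with ratios of 1.01 and 1.01 in Huh7, 0.965 and 0.955 in Hep3B, and Huh7 over Hep3B of 3.03 and 3.41. The remaining S100A6 probe set was dim throughout, between 4.37 and 5.01. The probe set shared by SNU13 and ANXA2 had ratios of 1.07 and 1.05 and was not used for ANXA2.

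Without ATO, the lines differed in the level of 9 of the 10 members, ANXA5 being within the thresholds at 1.19. Huh7 was above 1.5 times Hep3B for 4 members and below 0.67 times for 5, where 16.9% and 15.5% of all genes were. The rule that listed the members used this gap, so nothing is read from these shares. ANXA1 was 10.04 times, S100P 4.22 times, S100A10 3.03 times and ANXA2 1.98 times as high in Huh7. S100A14 was 26.4 times, S100A11 17.1 times, S100A6 15.2 times, ANXA3 3.80 times and S100A4 2.16 times lower in Huh7. The gap was past 10 times for 4 of the members, S100A14, S100A11, S100A6 and ANXA1, beside 2.18% of all genes. The gaps of S100A6, S100A11 and ANXA1 rest on dim values in 1 line, and with 16 added to every intensity their log2 values were -2.79, -2.91 and 1.77 in place of -3.93, -4.10 and 3.33. With the mean over the probe sets of a gene, those of S100A6 and ANXA1 were -1.91 and 1.61. S100A10 and ANXA2, which form a complex, were both higher in Huh7, while of the pair S100A11 and ANXA1 the former was higher in Hep3B and the latter in Huh7.

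With ATO, the same 4 members were above 1.5 and the same 5 below 0.67, so no gap changed its side. The shares over all genes were 15.0% and 15.7%. The gap was wider with ATO for 5 members and narrower for 5, beside 9528 wider and 10247 narrower of all 19775 genes. S100A11 was 87.4 times lower in Huh7 than in Hep3B with ATO, against 17.1 times without, and ANXA1 was 21.1 times higher, against 10.04 times. Both changes rest on dim values, so their size is uncertain. These were S100A11 in Huh7, at 10.9 and 7.06, and ANXA1 in negative control Hep3B, at 5.85. ANXA3 went from 3.80 to 1.65 times lower and S100P from 4.22 to 1.95 times higher in Huh7. These gaps share their profiles with the ratios above and are the same values read the other way.

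**Figure D3:**
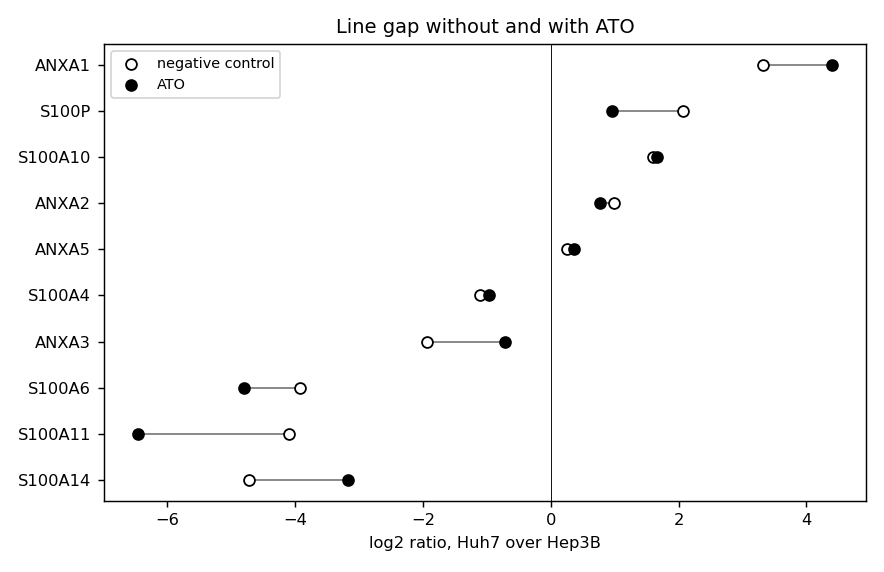
Log2 ratio of Huh7 over Hep3B for each gene in negative control cells (open) and with ATO (filled), in the order of the negative control gap. ANXA1, S100P, S100A10 and ANXA2 lie to the right of 0 and S100A4, ANXA3, S100A6, S100A11 and S100A14 to the left in both conditions, and ANXA5 lies near 0.

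All 5 S100A members lie on chromosome 1, where 17 S100A genes are annotated and 16 were measured. S100P, ANXA3 and ANXA5 lie on chromosome 4, ANXA1 on chromosome 9 and ANXA2 on chromosome 15. Of the 16, 11 were above the median of all probe sets in at least 1 profile, and among these Huh7 was above 1.5 times Hep3B for 4, below 0.67 times for 4 and within the thresholds for 3. Genes with opposite gaps stood next to each other in the order of the annotation. S100A10 was 3.03 times higher in Huh7 and S100A11, the next protein-coding gene, 17.1 times lower. S100A14, 26.4 times lower in Huh7, lies between S100A16, 1.97 times higher, and S100A13, 2.02 times higher. The values of S100A16 were 2848 and 3425 in Huh7 and 1442 and 1445 in Hep3B, negative control and ATO, and those of S100A13 were 885, 794, 439 and 521. The promoters of S100A10 and S100A11 are shown for this contrast, with the SP1 motif in capitals in each.
S100A10 promoter, chr1:151993860-151994109, minus strand: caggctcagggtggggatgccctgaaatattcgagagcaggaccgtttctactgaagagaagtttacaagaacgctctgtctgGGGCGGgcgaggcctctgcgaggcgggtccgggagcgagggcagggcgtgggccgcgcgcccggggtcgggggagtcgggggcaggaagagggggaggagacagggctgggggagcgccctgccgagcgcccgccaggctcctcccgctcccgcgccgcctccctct
S100A11 promoter, chr1:152037005-152037254, minus strand: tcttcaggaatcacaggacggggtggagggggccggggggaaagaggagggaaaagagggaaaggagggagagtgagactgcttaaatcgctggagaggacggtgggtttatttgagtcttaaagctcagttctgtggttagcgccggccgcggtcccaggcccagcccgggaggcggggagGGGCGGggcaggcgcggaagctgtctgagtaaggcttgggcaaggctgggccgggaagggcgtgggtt
Of these bases 71.2% are G or C in S100A10 and 63.6% in S100A11, beside 55.6% in S100P and 38.4% in ANXA1.

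**Figure D4:**
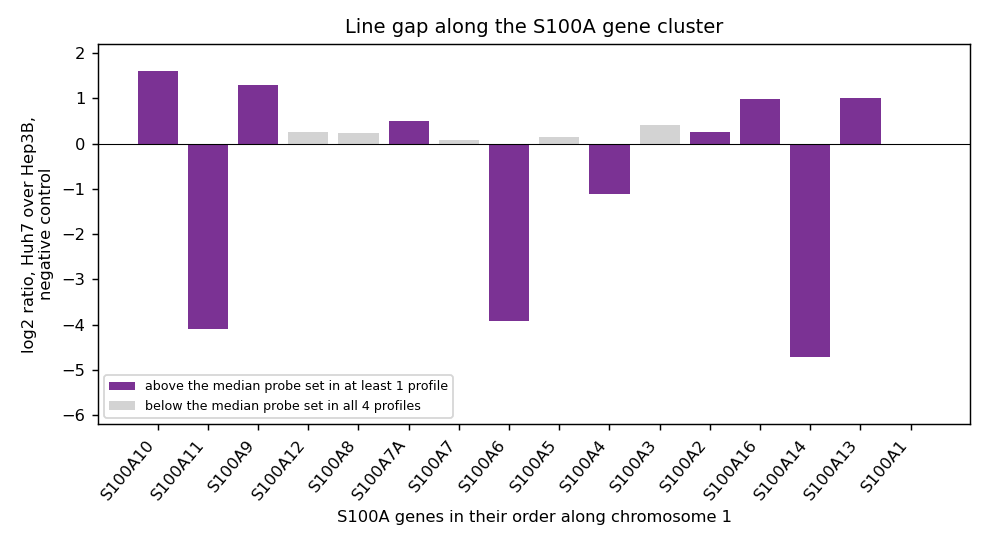
Log2 ratio of Huh7 over Hep3B in negative control cells for the 16 measured S100A genes in their order along chromosome 1 (evenly spaced), purple where the gene was above the median of all probe sets in at least 1 profile and grey where it was dim in all 4. Bars of S100A11, S100A6, S100A4 and S100A14 point down between neighbors that point up or are near 0.

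Of the 23 S100 and annexin genes outside the list, 21 were measured. ANXA8 and ANXA8L1 share their probe sets and were not analysed here. In both lines 3 of the 21 were above 1.5 and none was below 0.67, where 0.804% and 0.587% of all genes were. Of the 21, 8 were dim in all 4 profiles, as were 6233 of all 19775 genes. The median log2 ratio of the 21 was 0.02 in Huh7 and 0.25 in Hep3B. ANXA13, an annexin of intestinal and kidney epithelia, was at 10.3 and 22.1 in Huh7 and at 79.9 and 137 in Hep3B, with ratios of 2.14 and 1.71. S100A2, found in basal epithelia, had ratios of 1.83 and 1.53 from intensities between 17.5 and 38.2. S100A3 had ratios of 1.53 and 1.59 from values that were all dim, between 7.33 and 15.0. None of the 3 was above 1.5 in both lines with 16 added to every intensity, and only ANXA13 was with each profile centred on its median. None of the 21 had an adjusted p under 0.05 from limma, and 3 of them had an unadjusted p under 0.05, all higher. Over all 19775 genes limma called none either, with 1036 higher and 850 lower at an unadjusted p under 0.05. When genes with a mean intensity below 50.5, the median over genes, were left out, 16 higher and 8 lower passed.

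Among 25 listed receptors, binding partners and plasminogen system genes, 23 were measured and MYOF was the 1 gene above 1.5 in both lines, with none below 0.67. Of all genes, 0.804% were above 1.5 in both lines and 0.587% below 0.67 in both. MYOF encodes myoferlin, a calcium-dependent protein of membrane repair. Its intensity was 256 and 631 in Huh7 and 58.2 and 119 in Hep3B, with ratios of 2.47 and 2.05. IQGAP1, a scaffold that binds S100P, had ratios of 1.29 and 1.70. The median log2 ratio of this list was 0.09 in Huh7 and 0.11 in Hep3B. Of the formyl peptide receptors, through which ANXA1 acts, FPR1 was between 19.0 and 23.6, above the median of all probe sets in all 4 profiles, and FPR2 and FPR3 were dim in all 4, between 9.12 and 14.4 and between 5.16 and 9.12. AGER was between 26.4 and 35.1. Of the 23, 3 had an unadjusted p under 0.05 from limma, all higher, and none passed when adjusted over all genes. Of all 19775 genes, 1036 were higher and 850 lower at that unadjusted level.

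The genes whose pattern was nearest to that of S100P and ANXA1 were found over 3 numbers, the log2 ratio in each line and the log2 line gap without ATO, using those genes whose mean intensity reached 50.5, the median over genes. For S100P these were HMOX1, a heme-degrading enzyme, at a distance of 1.38, MT1X, a metallothionein, at 1.43 and EDN1, a vasoactive peptide, at 1.79. For ANXA1 they were KLF4, a transcription factor, at 1.52, MT1X at 1.60 and KYNU, an enzyme of tryptophan breakdown, at 1.65. A distance of 1 is a change of 2 times in 1 of the numbers, so none of these patterns was close, and the MT1X probe set is of the kind that may cross-hybridize. The likeness rests on 4 profiles and is a description.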

How the data were processed

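RNA from the treated and negative control cells, with 1 profile per line and treatment, was hybridized to Affymetrix U133 Plus 2.0 arrays. The authors summarized probes by the Robust Multi-array Average with simpleaffy, then log transformed and normalized the arrays. What they deposited is a linear intensity for each of 54675 probe sets, with medians between 15.8 and 16.3. How the log was undone, and how many arrays make a profile, are not given in the sources used here. From the platform annotation, 41097 probe sets had 1 gene symbol, 1801 several and 11777 none listed. Each of 19775 genes was read from its brightest probe set with 1 symbol.

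The members and all lists were chosen with earlier results of these data known. Ratios were taken from the deposited intensities with no added constant, and called past 1.5 or 0.67. Lists were described by counts and medians. limma 3.58.1 in R 4.3.3 was fitted to log2(intensity + 16) with cell line and treatment, leaving 1 residual degree of freedom, with Benjamini-Hochberg adjustment over all genes at 0.05. It took the 2 lines as the repeats of the treatment. The fit was tested on simulated data. Named were all members, the other listed genes past the thresholds in both lines, and the 3 nearest patterns of S100P and ANXA1. IQGAP1, EZR, S100PBP, FPR1, FPR2, FPR3, AGER, S100A16 and S100A13 were chosen after their values were seen. Tables and figures used Python 3.11.15, pandas 2.3.3 and matplotlib 3.10.9. Other probe set summaries, scalings, offsets and thresholds were tried.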

Additional observations from a re-analysis of the deposited data

Results flagged for a closer look

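The ratios of 3 members lay on opposite sides of 1 in the lines, as did those of 8475 of all 19775 genes. With 1 profile per condition, the difference was not tested. For S100A11 the log2 ratio in Huh7 minus that in Hep3B was -2.35, from 10.9 and 7.06 in Huh7, both dim, and 186 and 617 in Hep3B. For ANXA5 it was 0.12 and for S100A10 0.065, where every ratio was between 0.965 and 1.08. With each profile centred on its median, S100A10 was below 1 in both lines, with log2 ratios of -0.0090 (Huh7) and -0.14 (Hep3B), and with quantile normalization ANXA5 was at 0.0 in Hep3B.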

How the results depend on the processing

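The 3 members above 1.5 in both lines remained there with quantile normalization, with centred profiles and with 16 added to every intensity. ANXA1 also did with the mean of probe sets. S100P and ANXA3 rest on a single probe set each, so that mean could not change them. Leaving out probe sets ending in _x_at could change none of the 3, which have no such probe set. Leaving out dim genes, here those with a mean intensity below 50.5, changes no ratio. ANXA1 passed that filter through its Huh7 value with ATO, 406, although its negative control value in Hep3B was 5.85. With thresholds of 2 and 0.5 the count of members above in both lines was 2, without ANXA3. In Huh7 alone 5 members were above and 1 was below, and in Hep3B alone 5 were above. Of the other S100 and annexin genes, 3 in the main setting, 5 were above in Hep3B alone, 1 with centred profiles, 1 without dim genes, and 0 with 16 added or with thresholds of 2 and 0.5, while 1 was below in Huh7 alone. Of the partners 2 were above in Hep3B alone. The counts of members by line gap stayed within 1.5 times under all alternatives run. Of 150 member values under alternatives no called value changed sign and 10 moved by more than 1.5 times, which concern S100A6, S100A11, ANXA1 and ANXA2. Without probe sets ending in _x_at, ANXA2 was read from a dim probe set, with a log2 ratio of -0.14 in Hep3B and a log2 line gap of 0.045.

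limma called 0 genes in either direction, with 1036 higher and 850 lower at an unadjusted p under 0.05. It called 5 higher and 3 lower with no offset, 7 and 2 with an intensity trend in the prior, and 16 and 8 without dim genes, which left 9888 genes tested; the cause was not tested. Without the cell line as a replicate block it called 0 in either direction, as it did with an offset of 64, quantile normalization and the mean of probe sets. No signal over background was available in the values used here beyond the median of all probe sets.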
